A study of Rattus norvegicus with 28 samples.

Results

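The series set rats labelled mtCO3mut, whose neurons were made deficient in cytochrome c oxidase by editing mitochondrial DNA, beside wild-type rats. In it, 102 of 30560 genes had more transcript in the plus-marked than in the minus-marked libraries of both late lumbar spinal cord and brain. A gene was taken when, in both tissues, its lowest plus-marked value exceeded its highest minus-marked value, the ratio of the means was at least 1.4, and the mean was at least 1 CPM (the count as a share of the library's total, in counts per 1e+06). A further gene met these limits and was left out by the rule. The genes were thus chosen by the measured values of these same libraries, and the differences between the marks given below are a description without a test.

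Of the 28 samples in the labels, 16 were used here: 4 mtCO3mut and 4 wild-type (WT) samples of spinal cord and as many of brain, sequenced as total RNA after depletion of ribosomal RNA. The design text gives a NeuN-Cre line as the mutant, and NeuN is a nuclear protein of mature neurons. The labels give no age, sex or brain region, and do not say whether the samples of a group were separate animals, so spreads and p-values are between libraries and may be partly technical. The column names hold a mark, plus or minus, and no genotype. From these names alone, plus was taken to mean mtCO3mut and minus to mean WT, so every direction below is plus against minus, and each would turn against the genotype if the reading were the other way round. The 12 early-stage spinal cord libraries could not be tied to a genotype by their column names and were not analysed here.

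Cytochrome c oxidase, respiratory complex IV, passes electrons from cytochrome c to oxygen in the inner mitochondrial membrane, and part of its core, the subunit encoded by Mt-co3 included, is made from mitochondrial genes. Neurons depend heavily on this oxidative metabolism. The tables list genes by Ensembl identifier only, and none of the identifiers matched the names in the reference table used here. The functions of the 102 genes, the edited gene, and cell type markers were therefore not examined, and only 2 genes are given by identifier, those ranking first when each gene is ranked by the lower of its cord and brain ratios. In whole tissue, more transcript per cell and more cells of a type that makes it cannot be told apart.

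Total counts were 21008418 to 40359757 in plus-marked and 39952615 to 47597097 in minus-marked cord, and 64782608 to 82776333 and 33105800 to 62851529 in brain. The plus-marked libraries were thus mostly the shallower ones in cord and all the deeper ones in brain. The lowest count behind any of the 102 genes was 24 in a cord library and 20 in a brain library, with medians of 460 and 268. Brain minus-marked library 4 stood apart, with 36.07% of its counts in 10 genes, those of highest mean level in brain, where the other brain libraries had 17.76% to 26.36% in them. None of those 10 genes is among the 102.

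The direction shared by both tissues was mostly upward. In cord, 927 of 15085 genes of at least 1 CPM met the limits for higher values (6.15%), and in brain 141 of 14347 did (0.983%). Of the 13948 genes of at least 1 CPM in both tissues, 103 met them in both (0.738%), which is 13.8% of the 747 that did so in cord and 74.6% of the 138 that did so in brain. The mirrored limits for lower values were met by 645 genes in cord (4.28%), 45 in brain (0.314%) and 5 in both (0.0358%). Among genes of at least 1 CPM in both tissues, 610 met them in cord and 35 in brain. The 5 are 0.82% of those 610 and 14.3% of those 35. Columns of cord and brain carry the same 8 numbers, which may mark the same animals, so the tissues are not independent samples.

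The genes differed more between the marks in cord than in brain. The ratio of plus-marked over minus-marked means had a median of 2.36 in cord (1.45 to 5.25) and 1.70 in brain (1.404 to 4.28), where the median of all genes of at least 1 CPM in both tissues was 1.00 in each. It was at least 2 for 76 genes in cord, 29 in brain and 26 in both, and at least 3 for 22 genes in cord and 3 in brain. The cord ratio was the larger for 91 of the 102 genes. The same counts are not given over all genes. More of all genes met the limits for higher values in cord (6.15%) than in brain (0.983%), so the larger cord ratio is not read as a trait of the 102. Across the genes, which are not independent replicates and share the same libraries, the ratios of both tissues had a Spearman rho of 0.351.

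**Figure D1:**
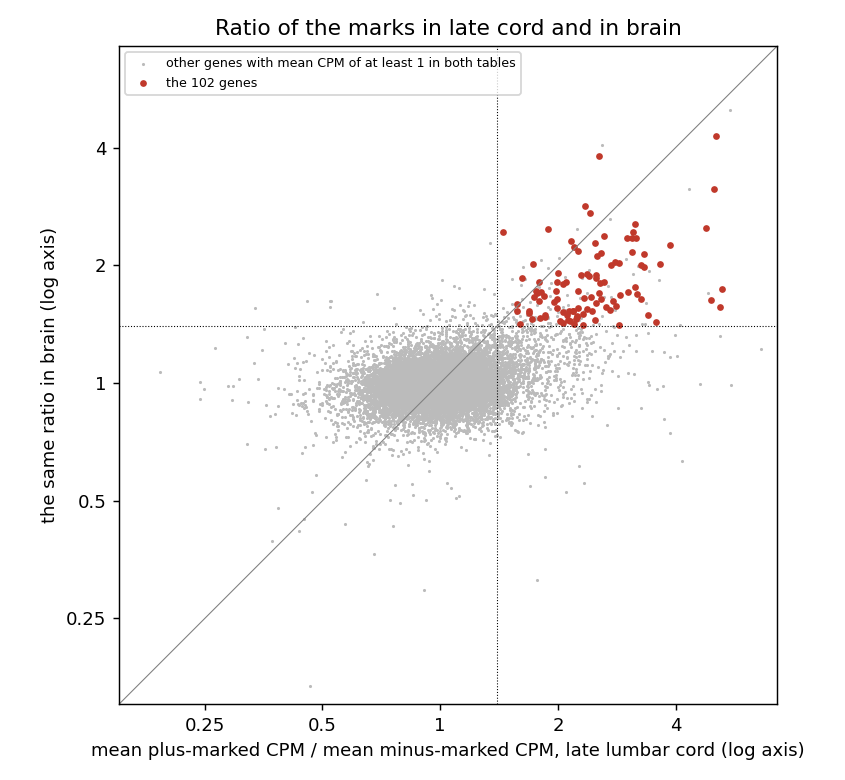
Ratio of mean plus-marked to mean minus-marked CPM in late lumbar cord (horizontal, log axis) and in brain (vertical, log axis) for the 102 genes (red) and all other genes of at least 1 CPM in both tissues (grey). Dotted lines mark the ratio of 1.4 used to choose the genes, and 91 of the 102 lie below the diagonal, where the cord ratio is the larger.

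ENSRNOG00000001959 had the largest difference when each gene was ranked by the lower of its ratios. In cord its level was 34.5, 37.9, 35.7 and 34.9 CPM in plus-marked libraries 1 to 4, and 4.95, 11.3, 5.64 and 6.21 CPM in minus-marked libraries 1 to 4. Every plus-marked cord library thus held at least 3.04 times the highest minus-marked one, which was library 2. In brain its level was 15.95, 16.02, 14.97 and 8.33 CPM in plus-marked and 3.81, 4.02, 2.56 and 2.53 CPM in minus-marked libraries. Plus-marked library 4 was well under the other 3 and still 2.07 times the highest minus-marked library. The means were 35.8 ± 1.51 against 7.04 ± 2.92 CPM in cord and 13.8 ± 3.69 against 3.23 ± 0.795 CPM in brain (SD, n = 4), ratios of 5.08 and 4.28.

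ENSRNOG00000007539 came second. Its cord level was 31.5, 32.5, 29.1 and 31.3 CPM in plus-marked and 4.15, 9.87, 6.07 and 4.66 CPM in minus-marked libraries. Minus-marked library 2 was again the highest of its group, and the plus-marked libraries lay close together. In brain the level was 7.26, 7.78, 7.01 and 6.41 CPM in plus-marked and 2.30, 3.14, 1.85 and 1.79 CPM in minus-marked libraries, again without overlap. The means were 31.1 ± 1.45 against 6.19 ± 2.59 CPM in cord and 7.11 ± 0.569 against 2.27 ± 0.627 CPM in brain (SD, n = 4), ratios of 5.03 and 3.14.

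**Figure D2:**
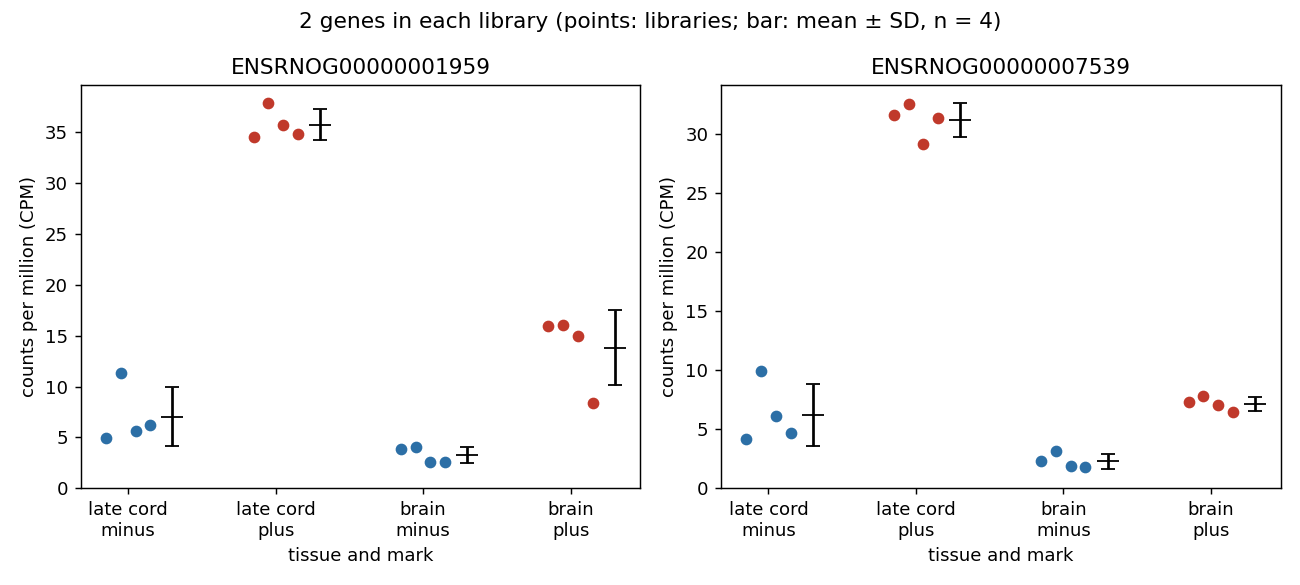
CPM of ENSRNOG00000001959 (left) and ENSRNOG00000007539 (right) in each library, minus-marked in blue and plus-marked in red, with the mean and SD of the 4 libraries beside them. The marks do not overlap in either tissue, and brain plus-marked library 4 is lower than the others for ENSRNOG00000001959.

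The most abundant of the 102 genes was at 3251, 2807, 2416 and 2978 CPM in plus-marked cord and 1088, 811, 1436 and 648 CPM in minus-marked cord. In brain it was at 889, 788, 709 and 534 CPM against 491, 500, 459 and 292 CPM, so that the lowest plus-marked brain library lay only 1.07 times above the highest minus-marked one. The next most abundant gene varied most within plus-marked cord, at 675, 2155, 1204 and 825 CPM, with library 2 the highest, against 452 to 570 CPM in minus-marked cord. In brain that gene was at 204 to 286 CPM against 117 to 147 CPM. The gene with the largest cord ratio, 5.25, was at 252, 182, 249 and 264 CPM in plus-marked and 42.4, 70.3, 34.5 and 33.1 CPM in minus-marked cord. In brain it was at 19.3 to 26.3 CPM against 9.44 to 17.8 CPM, a ratio of 1.74, so its large cord difference had no counterpart of that size in brain.

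Most of the genes were of low or middling level. The median gene was at 8.41 CPM in minus-marked and 19.02 CPM in plus-marked cord, and at 3.25 and 5.77 CPM in brain. Only 4 of the 102 genes had a mean of at least 100 CPM over the 16 libraries, and 50 were under 10 CPM. The order of the genes by minus-marked level was much the same in both tissues, with a Spearman rho of 0.80 across the genes, which share libraries and gene lengths. Genes of lower minus-marked level tended to have the larger ratio (rho of -0.32 in cord and -0.43 in brain), where the minus-marked level is also the denominator of the ratio.

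The gap between the marks was narrow for many genes, in brain above all. With no minimum ratio, 10.6% of genes of at least 1 CPM were higher without overlap in cord and 1.74% in brain. The lowest plus-marked library exceeded the highest minus-marked one by a median factor of 1.46 in cord and 1.15 in brain. The factor ran from 1.03 to 3.45 in cord and from 1.00 to 2.72 in brain. It was at least 1.2 for 80 genes in cord and 41 in brain. Counts at that gap are not given over all genes, and the 10.6% and 1.74% have no minimum gap. The gaps therefore only describe the genes chosen by the rule. The median coefficient of variation of these genes within a group was 19.5% and 18.9% in plus- and minus-marked cord and 14.9% and 19.3% in brain. The requirement of no overlap decided for many genes: of 199 genes with a ratio of at least 1.4 and at least 1 CPM in both tissues, the marks overlapped in cord only for 22, in brain only for 48 and in both for 26. A further 38 genes were higher without overlap in both tissues but had a ratio under 1.4 in at least one. The last 2 genes inside the rule had lower ratios of 1.405 and 1.404, and the first 2 outside it had 1.399 and 1.38, so the edge passes through a continuum.

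Plus-marked library 1 held the highest level of most of these genes in each tissue. It was the highest plus-marked library for 72 of the 102 genes in cord, for 60 in brain and for 47 in both. Counts of the highest or lowest library are not given over all genes, so they describe the libraries and are not read as a trait of the 102. Relative to the minus-marked mean of the tissue, the genes had a median log2 level of 1.52, 1.03, 1.12 and 1.04 in plus-marked cord libraries 1 to 4 and 0.98, 0.82, 0.68 and 0.55 in plus-marked brain libraries 1 to 4. In the minus-marked libraries it was -0.09, 0.17, 0.02 and -0.22 in cord and 0.14, 0.13, -0.05 and -0.25 in brain. Brain minus-marked library 4 was the lowest of its group for 61 genes, and it is the library with 36.07% of its counts in 10 genes. After scaling by the trimmed mean of M-values (TMM), which discounts such genes, its median log2 level was 0.07, and the plus-marked brain libraries were at 1.01, 0.85, 0.65 and 0.49. A link between that share of counts and the low values of the library was not tested.

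**Figure D3:**
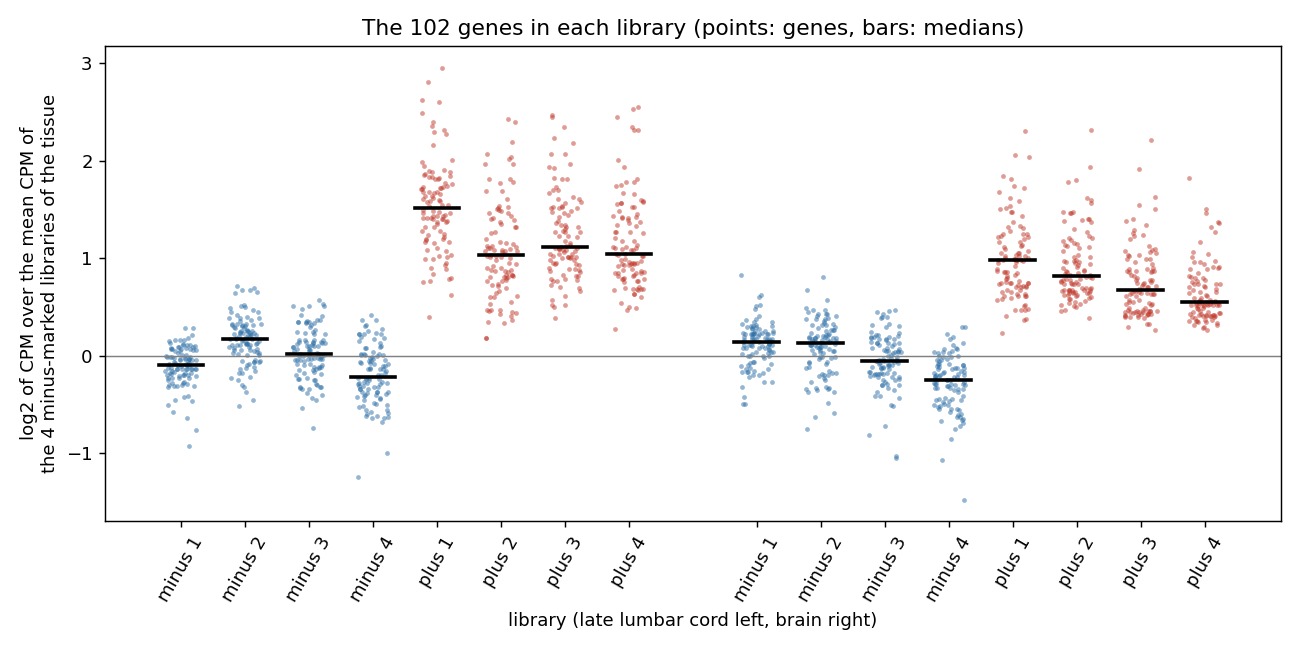
Each point is one of the 102 genes in one library, as the log2 of its CPM over the mean CPM of the 4 minus-marked libraries of that tissue, with late lumbar cord on the left, brain on the right, minus-marked libraries in blue and plus-marked in red. Black bars are medians, which run from 1.03 to 1.52 in plus-marked cord and from 0.55 to 0.98 in plus-marked brain.

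Together the 102 genes took a small share of the RNA. They held 0.815%, 0.792%, 0.688% and 0.728% of the counts of plus-marked cord libraries 1 to 4 and 0.298%, 0.295%, 0.339% and 0.260% of the minus-marked ones. In brain they held 0.246%, 0.232%, 0.203% and 0.174% against 0.138%, 0.139%, 0.122% and 0.100%. Without the 2 most abundant of them the shares were 0.296% to 0.422% against 0.138% to 0.169% in cord and 0.101% to 0.131% against 0.0589% to 0.0753% in brain.

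A code in the column names, such as L24, differed between libraries, and the ratios were recomputed within it. Cord libraries coded L24 were 3 plus-marked and 1 minus-marked, and there the median ratio of the 102 genes was 2.34. The other 4 cord libraries, 1 plus-marked and 3 minus-marked with a code each, gave a median of 2.11. In brain the median was 1.67 within code L3 (3 plus- and 2 minus-marked) and 1.62 within code L1 (1 and 2). Over all genes the medians of these subsets were 0.99, 0.973, 0.922 and 1.11. These are the libraries that chose the genes, and the limit of no overlap fixes every ratio within a code above 1, so only the sizes are given, as a description.

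All genes were fitted by edgeR's quasi-likelihood test with Benjamini-Hochberg adjustment and a threshold of 0.05. In cord, 6.83% of 17134 genes tested were higher in plus-marked libraries, 6.66% lower and 13.5% either. In brain 0.19% of 16860 were higher, 0.0534% lower and 0.243% either. How many of the 102 genes passed is not given, because the same contrast chose them and the test can decide nothing about them. As effect sizes only, their log2 differences between the marks were centred on medians of 1.21 in cord and 0.76 in brain. The medians of all genes tested were 0.00 in both.

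The level of these genes was also compared between cord and brain within the minus-marked libraries, a contrast between tissues that was not itself a limit of the rule. The minus-marked values did enter the rule, as the lower group of each tissue and as part of the mean level, so the comparison is not wholly independent of the choice. Most were higher in cord than in brain. By edgeR with Benjamini-Hochberg adjustment over all genes, 64 of the 102 were higher in cord and 8 in brain. The other 30 did not pass the threshold, and libraries of the same number were not paired in this fit. Of all 16966 genes tested, 37% were higher in cord and 35% in brain (72% either), and of the genes of at least 1 CPM in both tissues 36.6% and 37.8% were. The median log2 fold change of cord over brain was 0.71 for the 102 genes, with a range from -1.03 to 4.46, and 0.03 for all genes tested. Tissue and table cannot be told apart in this comparison, because each tissue was deposited as a table of its own. Of the 102 genes, 1 in cord and 8 in brain had a minus-marked mean under 1 CPM and met the minimum only through the plus-marked libraries. Of the 93 others, 59 were higher in cord and 8 in brain by edgeR, with a median of 0.68, where 36.6% and 37.8% of all genes with such minus-marked means were. Within code L3 the median log2 fold change of the 102 genes was also 0.68, a value given without a test because only 1 minus-marked cord library has that code.

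ENSRNOG00000001959 was higher in minus-marked cord than in brain by 0.73 ± 0.26 on the log2 scale (SE, adjusted p = 0.0196 by edgeR). That call rested on single libraries. Without cord minus-marked library 2, the highest, the log2 fold change was 0.41 (edgeR adjusted p = 0.106). Without brain minus-marked library 3 it was 0.60 (edgeR adjusted p = 0.0649). In CPM by column totals, 4 of 4 cord libraries lay above all 4 brain libraries. Such CPM places cord high as a whole, with a median cord to brain ratio of 1.299 over genes of at least 1 CPM in both tissues. Overlap of the libraries after TMM scaling is not given. ENSRNOG00000007539 was higher in cord by 1.05 ± 0.27 (SE, adjusted p = 0.00313 by edgeR), every cord library lying above every brain library in the same unscaled CPM. Without any one of the 8 libraries its adjusted p by edgeR was 0.00154 to 0.0141. Within code L3, from 1 cord and 2 brain libraries and so without a test, the differences were 0.39 for ENSRNOG00000001959 and 0.49 for ENSRNOG00000007539.

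The widest tissue difference belonged to a gene at 24.5, 20.6, 23.4 and 19.1 CPM in minus-marked cord. In minus-marked brain it was at 0.876, 0.624, 0.986 and 0.522 CPM, a log2 difference of 4.46 ± 0.18 (SE). It is one of the 8 genes that met the minimum of 1 CPM in brain only through the plus-marked libraries. In the plus-marked libraries it was at 33.7, 29.0, 37.5 and 26.5 CPM in cord and 3.13, 2.08, 1.01 and 1.08 CPM in brain. Its marks differed little in cord, with a ratio of 1.45, and its brain plus-marked libraries 3 and 4 were hardly above the highest minus-marked one. The gene farthest toward brain was at 27.5 to 40.5 CPM in minus-marked brain and 19.8 to 23.5 CPM in minus-marked cord, without overlap. Its log2 difference was -1.03 ± 0.12 (SE). This gene and the gene of the widest difference were picked as the extremes on this same value, so sizes are given without p-values. The most abundant gene was higher in minus-marked cord by 0.80 on the log2 scale (SE 0.20, edgeR adjusted p = 0.00284), and the next most abundant by 1.56 (SE 0.12, edgeR adjusted p = 2.82e-08).

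**Figure D4:**
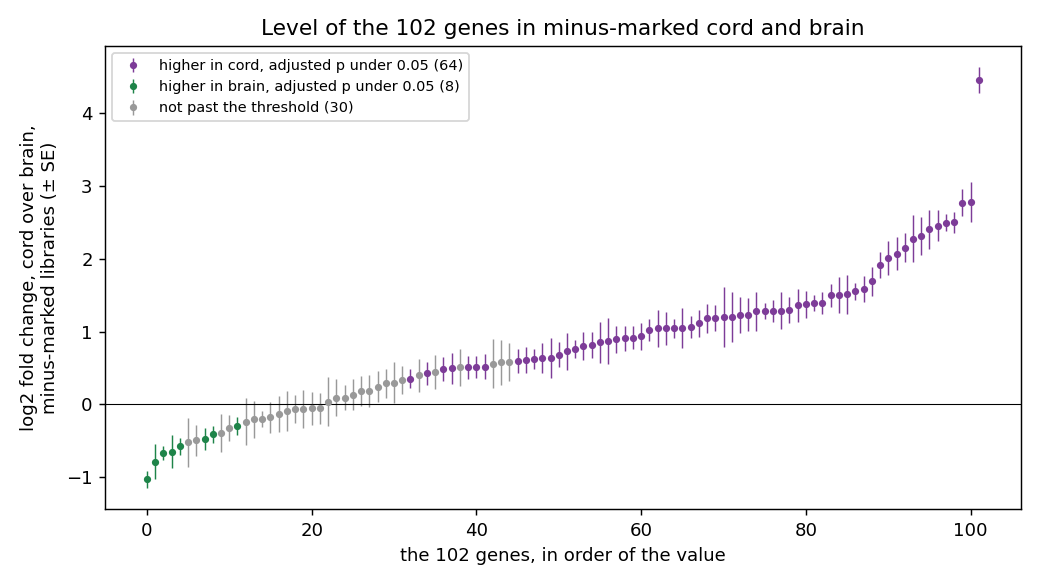
Log2 fold change of cord over brain in the minus-marked libraries (4 per tissue) with its standard error, for each of the 102 genes in order of the value. Of these, 64 were higher in cord (purple), 8 higher in brain (green) and 30 did not pass the threshold (grey).

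The ratios between the marks were set out by the baseline, without a test between the sets. The cord ratio had a median of 2.25 for the 64 genes higher in cord, 2.25 for the 8 higher in brain and 2.55 for the other 30. The brain ratio had medians of 1.71, 1.50 and 1.76 in the same order. The cord ratio was the larger for 55, 8 and 28 genes of these sets. CPM by column totals places cord high as a whole, since the median gene of at least 1 CPM in both tissues had a cord to brain ratio of 1.299 there, against 2.14 for the 102 genes. The gene whose cord ratio most exceeded its brain ratio was at 55.8, 32.3, 50.3 and 53.1 CPM with the plus mark and 7.99, 15.1, 6.98 and 6.71 CPM with the minus mark. In brain the same gene was at 1.36 to 1.75 CPM against 0.803 to 1.299 CPM.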

How the data were processed

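The authors deposited raw counts per gene, whole numbers without normalization, 1 column per library. Named in the submitters' processing notes are featureCounts, cutadapt, DESeq2 and, as genome build, mRatBN7.2. Aligner and strand setting were not given in the sources used here, so overlapping or near-identical genes may share reads. The 12 early-stage columns were not used, and the tests planned on them were not run.

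CPM was the count over the column total. Counts were tested with edgeR 4.0.16 (R 4.3.3, limma 3.58.1): filterByExpr, TMM scaling, robust quasi-likelihood F test, two-sided, Benjamini-Hochberg adjustment over all genes tested, threshold 0.05. Standard errors were derived from the F statistic. Late cord and brain were fitted separately on mark, and minus-marked cord against minus-marked brain on tissue. The fits were tested on simulated data.

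The genes, lists and tests were chosen with earlier results of these data known. Of 30560 identifiers 0 matched a name, so 33 gene lists were not tested. The naming rule took up to 40 members by the lower ratio and left out genes known by identifier only; that exclusion was lifted and the list shortened to 2 after the tables were seen. Other genes are described by their rank in level or difference, chosen after their values were seen.

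Minus-marked libraries of the same number in cord and brain deviated together from their group means (r of 0.25, 0.436, 0.239 and 0.26). The numbers were therefore taken to pair them in an alternative fit, with number as a replicate block. The comparison of tissues given in the results was fitted on tissue alone and ignores this pairing. Plus-marked libraries, which enter neither fit, gave r of 0.394, -0.118, 0.338 and 0.0471 for the same numbers, so pairing is not seen throughout. Alternatives were other scalings, DESeq2 1.42.0, other filters, a replicate block, the code in the column names and leaving out each library.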

Additional observations from a re-analysis of the deposited data

Results flagged for a closer look

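Of 44 sets of 4 libraries, each a group's values of a gene or summary described above, 2 had a library far from the other 3, where chance gives about 1 in 20. For ENSRNOG00000001959 in plus-marked brain, library 4 lay at 8.33 CPM and the others at 14.97 to 16.02 CPM, a gap of 0.863 of the whole range. For the unnamed gene whose cord ratio most exceeded its brain ratio, minus-marked cord library 2 lay at 15.1 CPM and the others at 6.71 to 7.99 CPM, a gap of 0.848 of the range. The same library was the highest minus-marked cord library for 54 of the 102 genes, a count not given over all genes. Its part in the results was not tested beyond leaving it out.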

How the results depend on the processing

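The number of genes chosen was 108 with TMM-scaled CPM (96 of the 102 among them), 118 without the 10 most abundant genes in the totals, 114 and 82 with a ratio of at least 1.3 and 1.5, 124 and 85 with no minimum or 2 CPM, and 89 to 140 without 1 library. Without brain minus-marked library 4 it was 89, of which 86 were among the 102.

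Over all genes, the late cord count of 2312 was 3348 with DESeq2 and 2636 with the code in the column name as a term. Without 1 library it was 1175 to 2114. Among these it was 1463 after leaving out plus-marked library 3 and 1341, 1175 or 1398 after leaving out minus-marked library 1, 2 or 3. The brain count of 41 was 8 to 60 without 1 library: 8, 10 or 13 after leaving out plus-marked library 1, 2 or 3, and 24, 22 or 15 after leaving out minus-marked library 1, 3 or 4. It was 210 with DESeq2 and 74 with no filter on low counts. The cause of these shifts in the counts was not tested. For the 102 genes only the size is given. Their median log2 difference in brain was 0.68 to 0.84 without 1 library, 0.76 with DESeq2 and 0.76 with no filter.

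Between tissues, 72 of the 102 genes were called in either direction, which is near the share of all 16966 genes tested (72%). By direction, 64 were higher in cord and 8 in brain, where 37% and 35% of all genes were. Under the other scalings, filters and tests, without 1 library or with a replicate block, 64 to 75 were called. Of these, 57 to 66 were higher in cord and 7 to 9 in brain. Among the 93 genes with a minus-marked mean of at least 1 CPM in both tissues, a limit added after the data were seen, 67 were called. Of them 59 were higher in cord and 8 in brain, where 36.6% and 37.8% of all genes with such means were. Within code L3, also added then, 47 were, from 1 cord library taken to vary like the 2 brain libraries, a fit too small to tell whether the difference holds. With number as a replicate block 75 of the 102 genes were called, 72 of them among the first 72. The block changed no call of the 2 genes given by identifier. Over all genes 12214 were called, and 11255 to 12801 over the alternatives other than code L3. With upper-quartile scaling 5969 were higher in cord and 6291 in brain, against 6269 and 5945. With no filter the median log2 difference of all genes was 0.13 instead of 0.03, and that of the 102 genes 0.71. In plus against minus, no number occurs under both marks, so no block could be fitted there.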
